A study of Mus musculus with 6 samples.

Results

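The genes described are those of oxidative phosphorylation, complexes I to V, in germinal centre B cells with and without Basp1. Members were taken by gene symbol: every symbol starting with Nduf, Uqcr, Cox4 to Cox8 or Atp5, the genes Sdha to Sdhd, and Cyc1 and Cycs. This gave 94 members of 23420 genes, of which 87 reached a mean of 1 CPM, counts scaled to the same sum in each library, over the 6 libraries and were tested among 10133 genes. By complex, 42 of 43 members of complex I were tested, 4 of 4 of complex II, 9 of 9 of complex III, 14 of 20 of complex IV, 17 of 17 of complex V, and the mobile carrier Cycs. Ndufa4 and its relative Ndufa4l2 were counted in complex IV, whose subunit NDUFA4 is now known to be. The symbols also take in 7 assembly factors of complex I, 7 tissue isoforms of complex IV and 4 relatives that are not structural subunits.

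Oxidative phosphorylation passes electrons from NADH and succinate through complexes I and II to ubiquinone, then through complex III and cytochrome c to complex IV, where oxygen is reduced. Complexes I, III and IV pump protons across the inner mitochondrial membrane, and complex V, the ATP synthase, uses the gradient to make ATP. Most subunits are encoded in the nucleus and a few core subunits in mitochondrial DNA, whose genes were not analysed here. Germinal centre B cells divide rapidly inside lymphoid follicles while they mutate and are selected for their antibody genes, and they are known for active mitochondrial metabolism.

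Messenger RNA was sequenced from splenic germinal centre B cells of mice on day 10 after NP-KLH, a hapten on a carrier protein. The KO group was BASP1 fl/fl hCD20TamCre+/- and the WT group BASP1 +/+ hCD20TamCre+/-, with 3 libraries each. Both groups thus carried the tamoxifen-activated Cre, named for the human CD20 gene of B cells, and both received tamoxifen (1 mg) on days 5, 7 and 9. B cells were enriched on beads and germinal centre cells were then sorted. The age of the mice, and whether each library came from a separate mouse, are not given in the labels. Whether the p-values cover the spread between mice is therefore unknown. They rest on the spread between these libraries, taken mostly from other genes of like level.

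Basp1 itself, a lipid-anchored membrane protein and transcriptional co-repressor, was at 3.27, 2.86 and 3.23 log2 CPM in KO libraries 1 to 3, against 5.49, 5.89 and 5.53 log2 CPM in WT libraries 1 to 3. It fell by 2.51 ± 0.45 (SD over 3 pairs) on the log2 scale in KO cells (adjusted p = 3.3e-16, limma with Benjamini-Hochberg adjustment). B cell markers summed to between 7371 and 7645 CPM in KO and between 7878 and 8170 CPM in WT libraries. Germinal centre markers, Basp1 included, summed to between 4216 and 4370 CPM in KO and between 4396 and 4565 CPM in WT libraries. The T cell list summed to at most 0.562 CPM in KO and 0.860 CPM in WT libraries, with Cd3e and Trat1 in every library at -5.063 log2 CPM, the most common value of the files (the floor). The myeloid list summed to between 2.55 and 3.78 CPM in KO and between 4.00 and 6.27 CPM in WT libraries, and the erythroid and platelet list to at most 2.89 CPM in KO and 2.33 CPM in WT libraries. The naive and follicular B cell list moved with pair 2, with a median difference of 1.17 there against -0.21 in pair 1 and -0.22 in pair 3. Plasma cell markers summed to between 2148 and 2343 CPM in KO and between 2314 and 2536 CPM in WT libraries. Nearly all of that sum came from Igj (mean 1751 CPM), Xbp1 (364 CPM) and Slamf7 (210.5 CPM). Prdm1 averaged 1.60 CPM, Sdc1 0.789 CPM and Tnfrsf17 0.0515 CPM. The nuclear and non-coding RNA list, a sign of RNA quality, summed to 474, 376 and 588 CPM in KO libraries 1 to 3 and 571, 737 and 458 CPM in WT libraries 1 to 3. Its median difference over 5 tested genes was -0.38 in pair 1, -0.83 in pair 2 and 0.38 in pair 3. The 5 genes did not move alike. On average Malat1 (393 CPM), Neat1 and Kcnq1ot1 were lower in KO cells, and Gas5 (110 CPM) and Rpph1 were higher. The part of these lists in the results below was not tested.

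Promoter sequence is shown for the 3 genes that encode the identical mature subunit c of the ATP synthase, for Uqcr11, which had the highest difference in complex III, for the 2 members with the smallest p, and for Cox7a2l, one of 2 tested members with all KO libraries below all WT libraries. Each line holds the 100 bases before the annotated start (RefSeq, GRCm38.p6), 5′ to 3′ on the gene's strand, with a matched motif in capitals. For Atp5g2 and Cox7a2l the RefSeq start used lies inside the gene as annotated by GENCODE. On the minus strand those genes begin at 102672352 (chromosome 15) and 83517330 (chromosome 17), so their stretches are within them. The stretches lie at chr11:96075632-96075731 (minus strand, Atp5g1), chr15:102671048-102671147 (minus, Atp5g2), chr2:73911327-73911426 (minus, Atp5g3), chr10:80406822-80406921 (minus, Uqcr11), chr2:174464102-174464201 (minus, Atp5e), chr7:3617273-3617372 (plus, Ndufa3) and chr17:83514334-83514433 (minus, Cox7a2l).
Atp5g1: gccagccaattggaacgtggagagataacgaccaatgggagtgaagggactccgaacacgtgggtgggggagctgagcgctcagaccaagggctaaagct
Atp5g2: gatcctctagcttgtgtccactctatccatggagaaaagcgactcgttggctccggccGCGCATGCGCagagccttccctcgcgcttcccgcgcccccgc
Atp5g3: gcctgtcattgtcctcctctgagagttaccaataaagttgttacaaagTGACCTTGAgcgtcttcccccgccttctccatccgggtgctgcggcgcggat
Uqcr11: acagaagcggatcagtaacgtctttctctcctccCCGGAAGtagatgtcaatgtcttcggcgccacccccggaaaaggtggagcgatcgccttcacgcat
Atp5e: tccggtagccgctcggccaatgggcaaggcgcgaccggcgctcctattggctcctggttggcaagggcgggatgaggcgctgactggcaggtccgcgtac
Ndufa3: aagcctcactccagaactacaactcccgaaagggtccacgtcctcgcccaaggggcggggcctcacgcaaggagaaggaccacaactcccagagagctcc
Cox7a2l: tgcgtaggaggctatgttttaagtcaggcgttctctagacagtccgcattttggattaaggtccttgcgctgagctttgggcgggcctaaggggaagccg
The capitals mark an NRF1 match (GCGC, then A and any base, then GCGC) before Atp5g2, an ERR match (TCAAGGTCA, here on the opposite strand) before Atp5g3 and an ETS match (CCGGAAG, a core that GABP binds) before Uqcr11. The stretches of Atp5g1, Atp5e, Ndufa3 and Cox7a2l held none of the 4 motifs searched, the last being YY1 (AAGATGGCG), on either strand. In the wider windows counted next, not wholly within the printed bases, Atp5e had an ETS match and Atp5g3 also an NRF1 match.

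Windows of 300 bases, 250 before and 50 after the start, were found for 72 of the 87 tested members and for 27025 genes in all, and both strands were searched. The 27025 genes were not limited to tested genes, as the members were. The shares below thus compare unlike sets, and the share among tested genes was not counted. NRF1 letters were present in 18 of 72 members and in 5.19% of all genes, and ETS letters in 17 members (23.6%) and in 9.93% of all genes. YY1 letters were present in 8 members (11.1%) and in 1.64% of all genes, and ERR letters in 2 members (2.78%) and in 0.466% of all genes. At least 1 of the 4 motifs was present in 37 members (51.4%) and in 15.5% of all genes, and no 2 different motifs overlapped in a member. The median difference between KO and WT cells was 0.084 log2 units in members with the NRF1 letters and 0.063 in those without, 0.091 with the ETS letters and 0.068 without, 0.020 with the YY1 letters and 0.073 without, and 0.085 with the ERR letters and 0.069 without. These matches describe letters in a window and not bound sites.

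No oxidative phosphorylation gene passed 5% FDR: 0 of 87 tested members were called in either direction by limma with Benjamini-Hochberg adjustment, beside 0.266% of all tested genes. The smallest adjusted p was 0.191, for Atp5e. Without the replicate number as a block 6 members were called, all higher in KO cells, beside 0.977% of all tested genes called higher and 1.4% called in either direction. That fit treats as free 2 degrees of freedom per gene that the deposited values had already used. At an unadjusted p under 0.05, 12 members (13.8%) were higher in KO cells, beside 4.16% of all tested genes, and 0 were lower, beside 4.66%. The count of 12 was not stable. It was 4 without the variance trend, and 3, 4 and 22 when the libraries numbered 1, 2 and 3 were left out in turn. Without the replicate block, in the fit that treats used degrees of freedom as free, it was 31, and 1 member was lower. In that fit 2361 of 10133 genes had such a p in either direction. The mean difference, KO minus WT, was above 0 in 66 members (75.9%), beside 51.4% of all tested genes, and its median was 0.063 log2 units, beside 0.0037. All KO libraries lay above all WT libraries in 31 members (35.6%), beside 15.2% of all tested genes, and below them in 2 (2.3%), beside 12.5%. The deposited KO and WT values with the same number have a fixed sum for each gene. Groups without overlap, here and below, therefore mean only that the differences of all like-numbered libraries share a sign. The members share their libraries and are not replicates, so these counts are a description. In such bulk samples fewer cells of a type and less RNA per cell cannot be told apart.

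**Figure D1:**
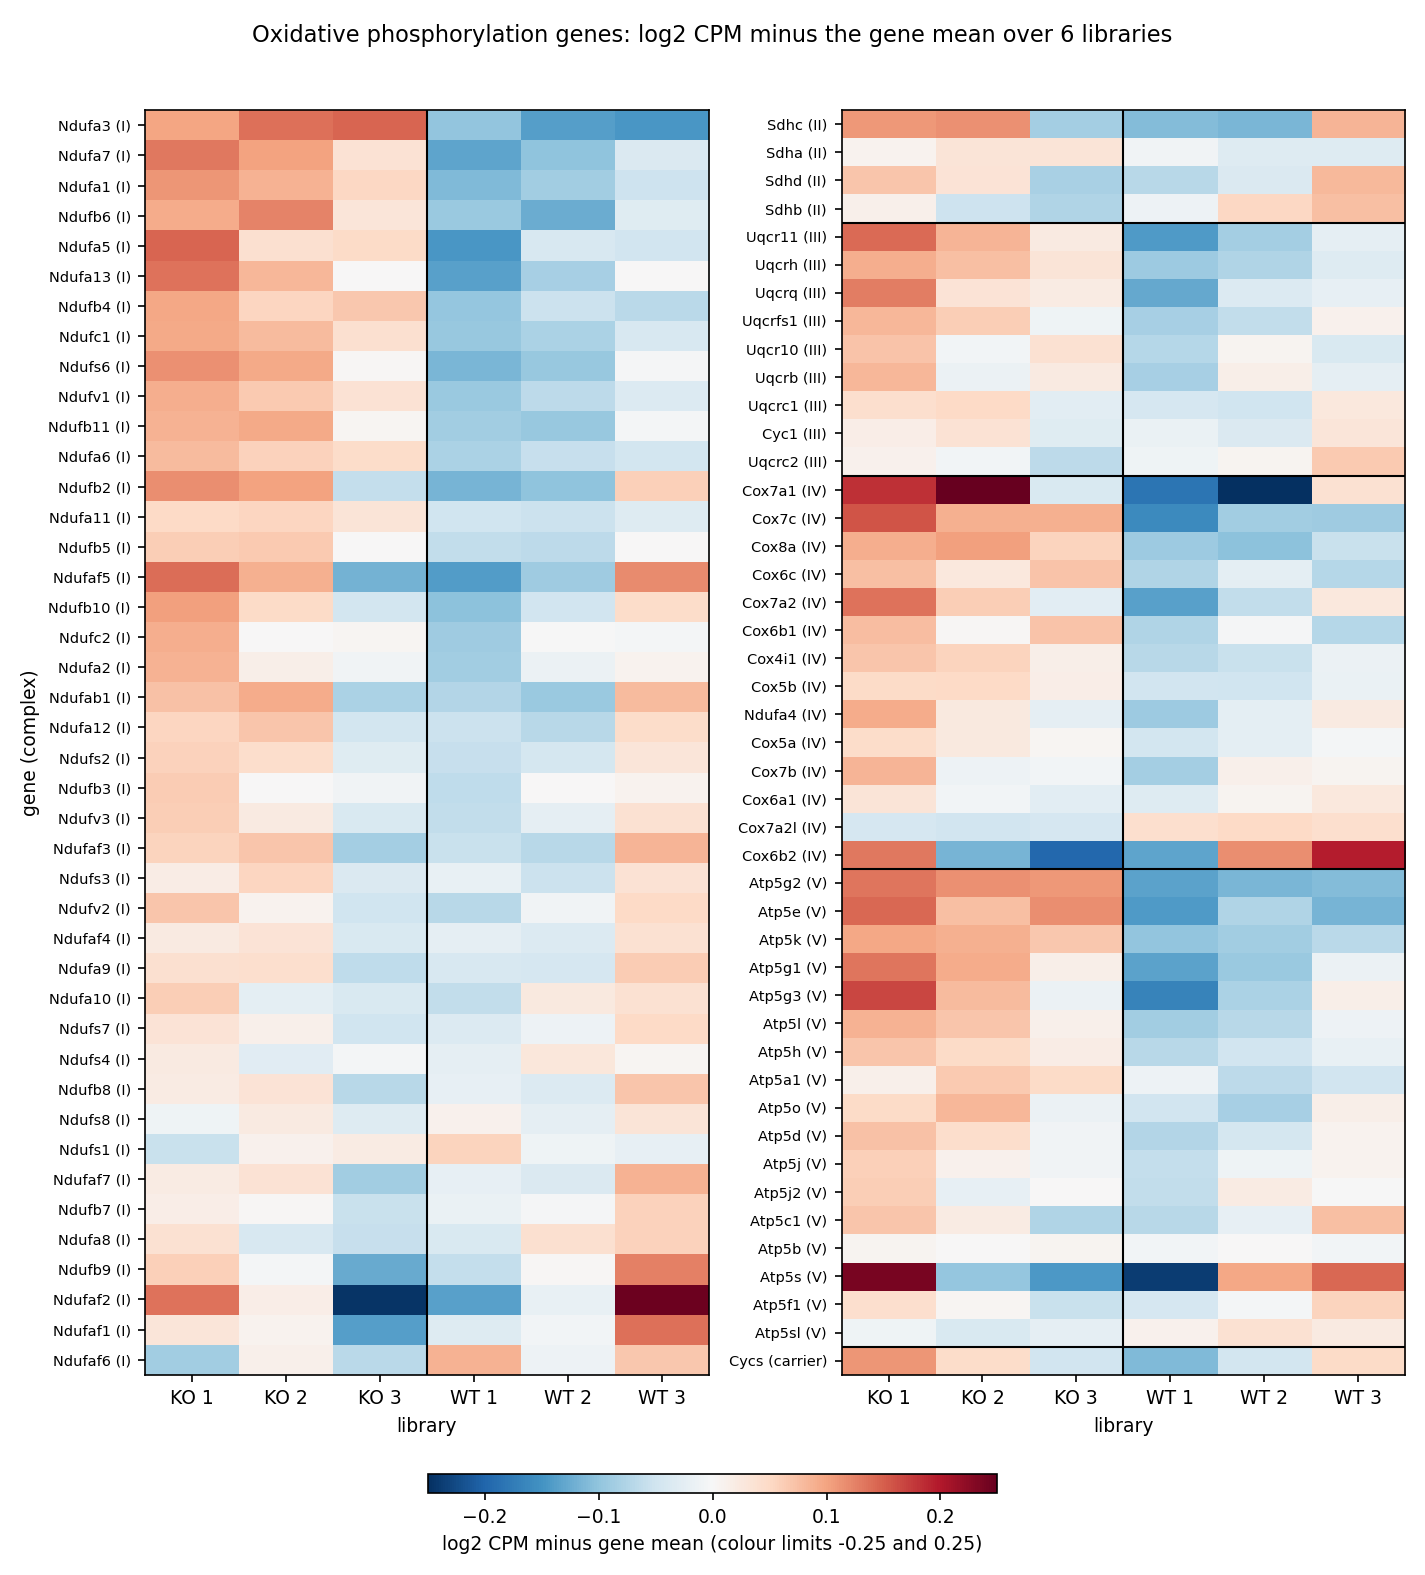
Deposited log2 CPM of each of the 87 tested members minus its mean over the 6 libraries, with KO libraries 1 to 3 left of WT libraries 1 to 3 and genes ordered within complexes by their difference; colours stop at -0.25 and 0.25. KO 1 and KO 2 are mostly above the gene mean, while KO 3 is split between genes above and below it; because the deposited values of a pair sum to the same total for each number, the WT side mirrors the KO side.

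The differences were unequal among the 3 pairs of like-numbered libraries. The median over members was 0.142 in pair 1, with 82 of 87 positive, 0.085 in pair 2, with 70 positive, and -0.017 in pair 3, with 36 positive. The medians over all tested genes were 0.003, 0.011 and 0.004 in pairs 1, 2 and 3. Without pair 1 the members' median was 0.022, with 55 positive, and without pair 3 it was 0.103, with 80 positive. Summed over the 94 members, 2.57%, 2.53% and 2.47% of the CPM came from these genes in KO libraries 1 to 3, against 2.38%, 2.41% and 2.47% in WT libraries 1 to 3. The median difference of the nuclear and non-coding RNA list (5 tested genes) was -0.38, -0.83 and 0.38 in pairs 1, 2 and 3. Its sign was opposite to that of the members' median in each pair. The mean differences of the 5 genes went both ways, and the list's part in the result was not tested. KO 3 and WT 3 carried nearly the same share, while both other pairs had the higher share in the KO library. Across the 87 members the differences of pairs 1 and 2 had a Spearman correlation of 0.52 and a Pearson correlation of 0.376, beside 0.18 and 0.133 over all tested genes. The values were 0.273 and 0.0967 between pairs 1 and 3, beside -0.0884 and -0.0129 over all tested genes, and 0.352 and 0.293 between pairs 2 and 3, beside 0.104 and 0.105. The points of a pair share their libraries, and genes are not independent.

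**Figure D2:**
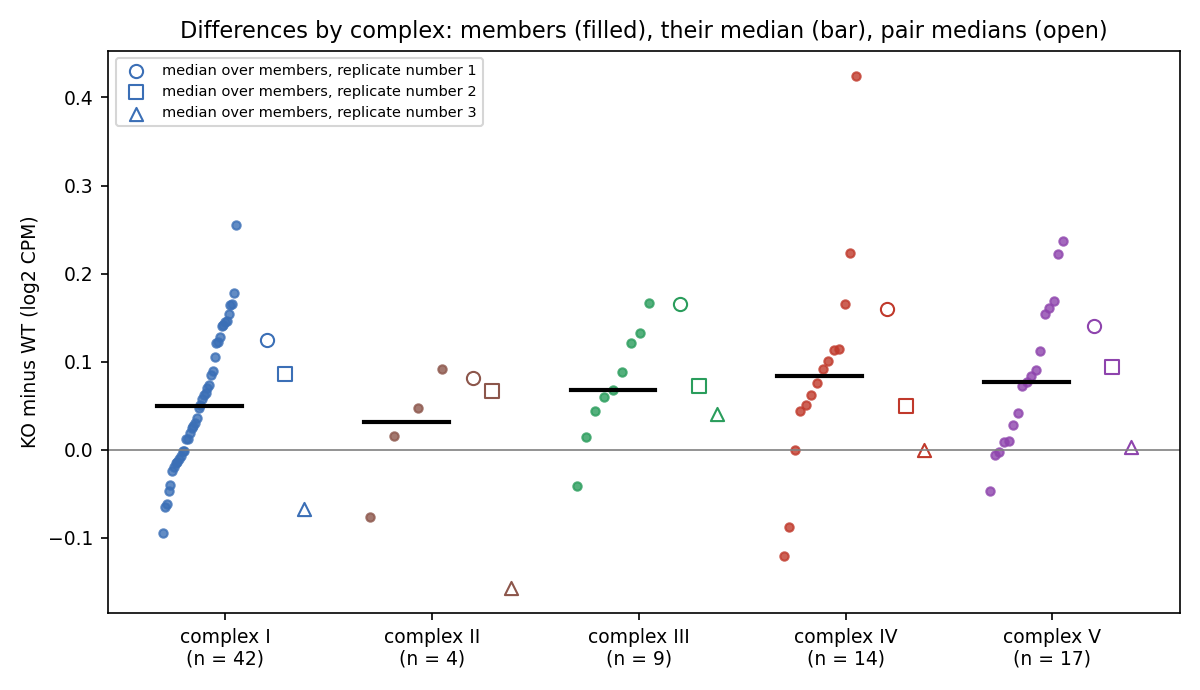
Mean difference, KO minus WT in log2 CPM, for each tested member (filled points), the median of each complex (bars) and the medians in pairs 1, 2 and 3 (open circle, square and triangle). The complex medians lie between 0.032 and 0.084, and pair 3 gives the lowest of the 3 pair medians in every complex.

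Complex I, the NADH dehydrogenase, had a median difference of 0.049, with 29 of 42 members positive and pair medians of 0.125, 0.086 and -0.067. Its 28 accessory subunits had a median of 0.077 (22 positive), its 7 core subunits 0.019 (4 positive) and its 7 assembly factors -0.020 (3 positive). These subgroups were formed with the values known, and no difference between them was tested.

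Ndufa3, an accessory subunit (chromosome 7, 3617373 to 3620327, plus strand, GRCm38), was at 6.95, 6.99 and 7.00 log2 CPM in KO libraries 1 to 3, against 6.75, 6.71 and 6.71 log2 CPM in WT libraries 1 to 3. Every KO library lay above every WT library. The difference was 0.26 ± 0.05 (SD over 3 pairs), a 1.19-fold ratio with a 95% interval of 0.09 to 0.42 on the log2 scale, and limma gave an unadjusted p of 0.00216 and an adjusted p of 0.199. Ndufa7, a further accessory subunit, was at 7.38, 7.35 and 7.28 log2 CPM in KO libraries and 7.12, 7.15 and 7.21 log2 CPM in WT libraries. The groups were again apart, by 0.18 ± 0.10 (limma adjusted p = 0.439).

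Ndufa1 (0.17 ± 0.06) and Ndufb6 (0.16 ± 0.10) completed the 4 members of complex I with an unadjusted p under 0.05. Ndufs8, an iron-sulfur core subunit with the highest mean log2 CPM of the complex, was at 8.47, 8.51 and 8.46 log2 CPM in KO and at 8.50, 8.46 and 8.52 log2 CPM in WT libraries, and the groups overlapped (difference -0.01 ± 0.05). Ndufv1, which binds NADH and FMN, was the only core subunit with all KO libraries above all WT libraries (0.13 ± 0.06, limma adjusted p = 0.657). The lowest differences of the complex belonged to assembly factors, Ndufaf6 with -0.09 ± 0.11 and Ndufaf1 with -0.07 ± 0.18, both with overlapping groups.

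Ndufs5, an accessory subunit, was near the floor, at -4.93, -4.93 and -5.33 log2 CPM in KO libraries and -4.93, -4.93 and -4.53 log2 CPM in WT libraries. A gene of this kind is present in every functional complex I, so such a value can be a failed estimate rather than absent RNA. Of the 606 stretches of 75 bases in its annotated transcript 24.1% also occur in BC002163, which averaged 6.18 CPM in KO and 4.81 CPM in WT cells. The difference of BC002163 was 0.36 ± 0.27 (limma adjusted p = 0.618).

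Complex II, succinate dehydrogenase, which links the tricarboxylic acid cycle to the chain, had 4 members, 3 of them positive, with a median of 0.032 and pair medians of 0.082, 0.067 and -0.157. Sdha, the flavoprotein that oxidizes succinate, was at 9.01, 9.03 and 9.03 log2 CPM in KO and 8.99, 8.97 and 8.97 log2 CPM in WT libraries. The groups of Sdha did not overlap, and the difference was 0.05 ± 0.03 (limma adjusted p = 0.905). Sdhb, the iron-sulfur protein, was at 9.17, 9.11 and 9.08 log2 CPM in KO and 9.15, 9.21 and 9.23 log2 CPM in WT libraries, with overlap and a difference of -0.08 ± 0.09. The membrane anchors Sdhc (0.09 ± 0.23) and Sdhd (0.02 ± 0.16) also overlapped, and their differences in pair 3 were -0.17 and -0.16, opposite to pairs 1 and 2.

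Complex III, the cytochrome bc1 complex, had a median of 0.068 with 8 of 9 members positive and pair medians of 0.165, 0.072 and 0.041. Its 5 small subunits had a median of 0.121 and its 4 catalytic and core protein genes 0.029. Uqcr11, a small accessory subunit, was at 7.72, 7.67 and 7.61 log2 CPM in KO and 7.44, 7.50 and 7.56 log2 CPM in WT libraries. Its groups did not overlap (0.17 ± 0.12, limma adjusted p = 0.473), and neither did those of the hinge protein gene Uqcrh (0.13 ± 0.06, limma adjusted p = 0.637). Uqcrc1, core protein 1 and the member of complex III with the highest log2 CPM, differed by 0.04 ± 0.08. Cyc1, cytochrome c1, differed by 0.01 ± 0.07 and Uqcrc2, core protein 2, by -0.04 ± 0.08, with overlapping groups for each of these genes. Cycs, the soluble cytochrome c that carries electrons from complex III to complex IV, was at 7.79, 7.73 and 7.64 log2 CPM in KO and 7.57, 7.64 and 7.73 log2 CPM in WT libraries. Its groups overlapped (0.07 ± 0.16, limma adjusted p = 0.859).

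Complex IV, cytochrome c oxidase, had a median of 0.084 over 14 tested members, 11 of them positive, with pair medians of 0.160, 0.050 and -0.0005. Of its 11 structural subunits with ubiquitous expression 10 were positive. Cox7c, a small subunit, was at 7.11, 7.04 and 7.04 log2 CPM in KO and 6.79, 6.86 and 6.86 log2 CPM in WT libraries, and the groups did not overlap. The difference was 0.22 ± 0.08, a 1.17-fold ratio (limma adjusted p = 0.292). Of the stretches of 75 bases in its transcript 50.4% occur in other annotated transcripts, mostly Gm10012, so its count is uncertain. Cox8a, a small subunit too, was at 8.85, 8.86 and 8.82 log2 CPM in KO and 8.67, 8.66 and 8.70 log2 CPM in WT libraries. The groups of Cox8a were apart by 0.17 ± 0.05 (limma adjusted p = 0.368). Cox4i1, the ubiquitous form of subunit 4 and the member of complex IV with the highest log2 CPM, differed by 0.09 ± 0.06 with no overlap (limma adjusted p = 0.744).

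Cox7a2l, which promotes the joining of complexes III and IV into supercomplexes, differed in sign from most members. It was at 7.92, 7.92 and 7.92 log2 CPM in KO libraries and 8.01, 8.02 and 8.01 log2 CPM in WT libraries, so that all KO libraries lay below all WT libraries. The difference was -0.09 ± 0.01 over the 3 pairs, which is a small spread, but limma, which takes most of its error from genes of like level, gave an adjusted p of 0.809. Of the stretches of 75 bases in its transcript 15.3% occur in other annotated transcripts.

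Of the tissue isoforms of complex IV, 2 were tested, Cox6b2 (testis) and Cox7a1 (heart and muscle). Both averaged near the limit for testing, Cox6b2 at 2.51 CPM in KO and 2.73 CPM in WT cells and Cox7a1 at 2.23 CPM in KO and 1.66 CPM in WT cells. Their differences, -0.12 ± 0.34 and 0.42 ± 0.53, were the lowest and the highest of all tested members, and their groups overlapped. Cox6a2, Cox7b2, Cox8b and Cox8c, isoforms of muscle or testis, were listed at the floor in all 6 libraries. Cox4i2, the lung isoform, averaged 0.185 CPM in KO and 0.0861 CPM in WT cells, and Ndufa4l2, a paralogue known from hypoxia, 0.361 CPM in KO and 0.652 CPM in WT cells, both below the limit.

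**Figure D3:**
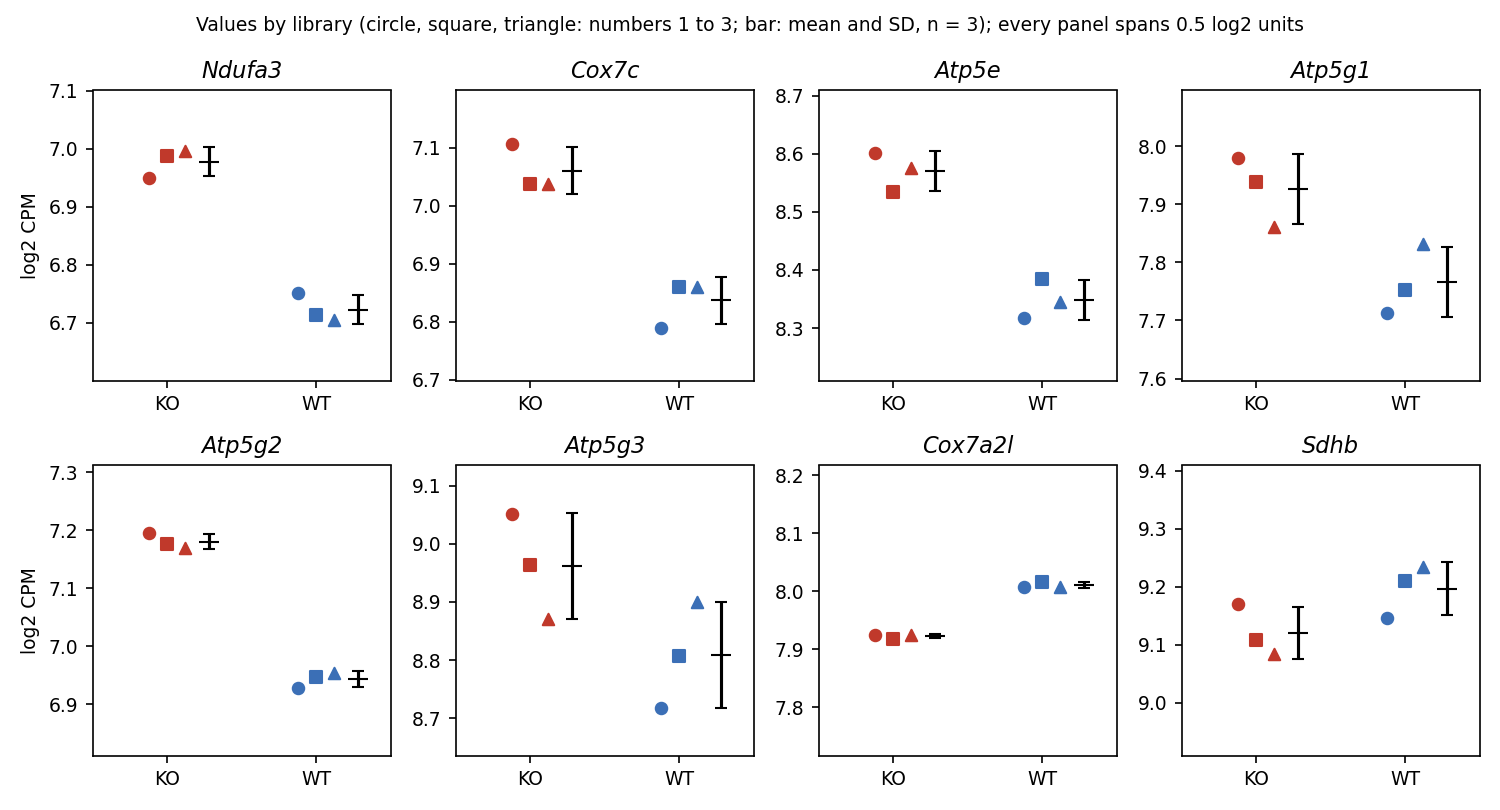
Deposited log2 CPM of 8 members by library, KO left of WT in each panel, with circle, square and triangle for numbers 1 to 3 and bars for the mean and SD (n = 3 per group); each axis spans 0.5 log2 units. Ndufa3, Cox7c, Atp5e, Atp5g1 and Atp5g2 have KO points above all WT points, Cox7a2l has KO points below all WT points, and Atp5g3 and Sdhb overlap; the SDs of the 2 groups match because each pair has a fixed sum.

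Complex V, the ATP synthase, had a median of 0.077 with 14 of 17 members positive and pair medians of 0.140, 0.094 and 0.003. The 17 include the relatives Atp5s and Atp5sl, both with a negative difference. Of its 15 structural subunits 14 were positive, with a median of 0.084 and pair medians of 0.140, 0.130 and 0.013. The 5 members with an unadjusted p under 0.05 were the 3 genes of subunit c, Atp5e and Atp5k. Subunit c forms the rotating membrane ring, and Atp5g1, Atp5g2 and Atp5g3 encode the same mature protein with different import sequences.

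Atp5g2 (chromosome 15, 102662864 to 102672352, minus strand, GRCm38) was at 7.20, 7.18 and 7.17 log2 CPM in KO libraries and 6.93, 6.95 and 6.95 log2 CPM in WT libraries. Its groups did not overlap, and the difference was 0.24 ± 0.03, a 1.18-fold ratio (limma adjusted p = 0.243). Of the stretches of 75 bases in its transcript 86.9% occur in other annotated transcripts, mostly Gm10175, so its count is uncertain. Atp5g1 was at 7.98, 7.94 and 7.86 log2 CPM in KO and 7.71, 7.75 and 7.83 log2 CPM in WT libraries. The groups of Atp5g1 did not overlap (0.16 ± 0.12, limma adjusted p = 0.479). Atp5g3 was at 9.05, 8.96 and 8.87 log2 CPM in KO and 8.72, 8.81 and 8.90 log2 CPM in WT libraries. Here KO 3 lay below WT 3, the groups overlapped, and the difference was 0.15 ± 0.18 (limma adjusted p = 0.461).

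Atp5e, the epsilon subunit of the central stalk (chromosome 2, 174461072 to 174464105, minus strand), was at 8.60, 8.53 and 8.57 log2 CPM in KO and 8.32, 8.38 and 8.34 log2 CPM in WT libraries. No WT library reached a KO library. The difference was 0.22 ± 0.07, a 1.17-fold ratio with a 95% interval of 0.08 to 0.36 on the log2 scale, and limma gave an unadjusted p of 0.00185. No stretch of 75 bases in the transcripts of Atp5e or Ndufa3 occurs in another gene's transcript. Atp5k, subunit e of the membrane part, differed by 0.17 ± 0.03 (limma adjusted p = 0.505).

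Atp5b, the catalytic beta subunit and the member with the highest log2 CPM, was at 11.21, 11.21 and 11.21 log2 CPM in KO libraries and 11.20, 11.21 and 11.20 log2 CPM in WT libraries. KO 2 and WT 2 held the same deposited value, and the difference of 0.0093 ± 0.0081 had a 95% interval of -0.10 to 0.12 on the log2 scale. Atp5f1, subunit b of the peripheral stalk, differed by -0.0060 ± 0.098. Atp5sl, now known as Dmac2 and needed for complex I assembly, was the other tested member with all KO libraries below all WT libraries (-0.05 ± 0.03, limma adjusted p = 0.943).

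Levels of different genes were compared as CPM per kilobase of an annotated transcript, averaged over the 6 libraries. The medians were 158 CPM per kilobase in complex I, 210 in complex II, 332 in complex III, 435 in complex IV and 439 in complex V. The highest levels were those of Atp5b, with 1238 CPM per kilobase in KO and 1230 in WT cells, and Cox4i1, with 1166 in KO and 1094 in WT cells. Cycs had 67.5 CPM per kilobase in KO and 64.1 in WT cells, on a transcript of 3123 bases. These levels depend on the transcript chosen, and 3 subunits with unusually long annotated transcripts, Atp5g1 (4715 bases), Ndufb2 (4371 bases) and Ndufab1 (3479 bases), are low on this scale.

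The members with a positive difference were mostly genes with short coding sequences. Across the 87 members the Spearman correlation of the mean difference with coding length was -0.561, and it was -0.601, -0.233 and -0.47 in pairs 1, 2 and 3. Over 9794 tested genes with a coding length it was -0.12 for the mean, and -0.294, -0.169 and 0.25 in pairs 1, 2 and 3. In pair 3 the sign among members was thus opposite to that over all genes. Of the 44 members with a coding length at or below the members' median of 438 bases 40 were positive, with a median of 0.114, and they included all 12 members with an unadjusted p under 0.05. Of the 43 longer members 26 were positive, with a median of 0.015. The median coding length over all tested genes was 1311 bases, so the background shares come from mostly longer genes. The share of positive differences among short genes in general was not counted. Points share their libraries, and the split was made with the values known.

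**Figure D4:**
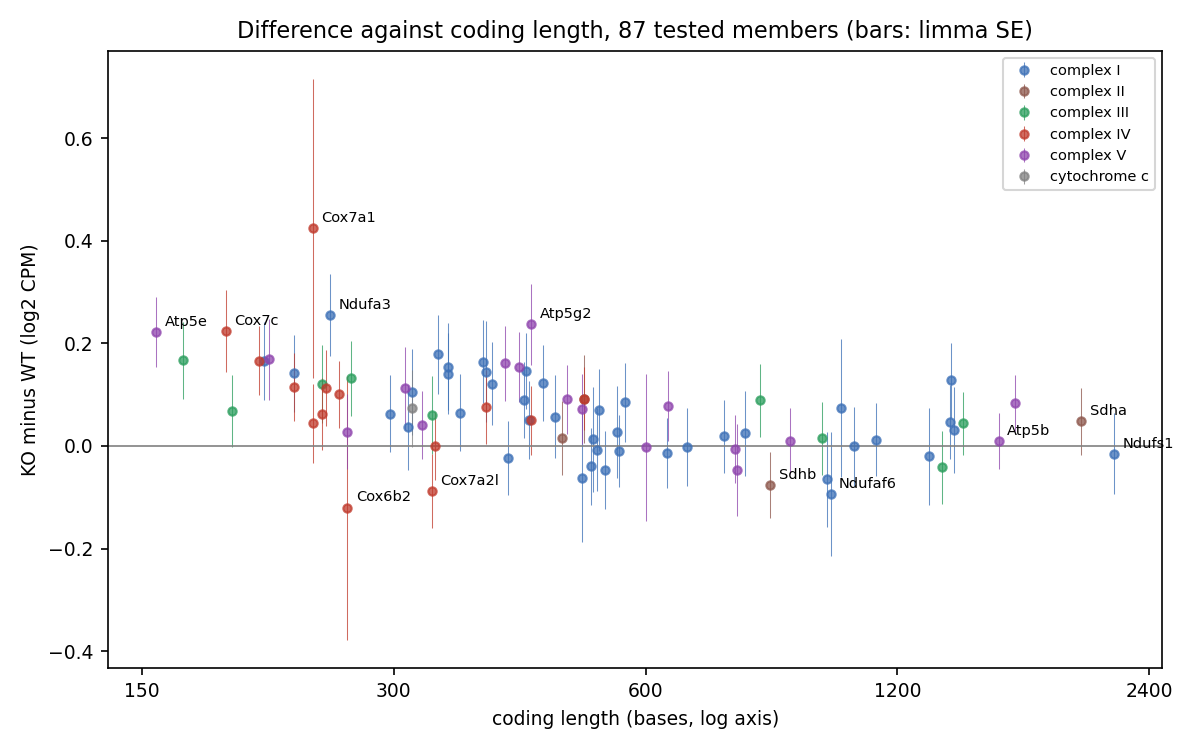
Mean difference, KO minus WT in log2 CPM, of the 87 tested members against coding length in bases (log axis), coloured by complex, with limma standard errors as bars. Members at or below 438 bases lie mostly above 0 (40 of 44), and longer members are spread around 0 (26 of 43 above).

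When the trend of each library over transcript length and GC content was removed from all genes, the members' median was 0.036, with 67 of 87 positive, beside -0.0008 over all genes. The pair medians then were 0.025, 0.058 and 0.030, so that all 3 were above 0. The complex medians were 0.026, 0.027, 0.038, 0.049 and 0.047 for complexes I to V, and complex II kept a negative pair 3 median of -0.071. The members with short coding sequences had a median of 0.065 and the longer ones 0.013. The 3 subunit c genes had 0.157 (Atp5g1), 0.1965 (Atp5g2) and 0.115 (Atp5g3). The trend was taken over transcript length, which for Atp5g1 is 4715 bases, with a coding length of 408 bases. At an unadjusted p under 0.05, 9 members (10.3%) were higher in KO cells, beside 4.38% of all genes in this fit, and 0 were lower, beside 4.98%. At 5% FDR 0 of 87 were called, beside 0.0397% of all genes (smallest limma adjusted p = 0.407, Atp5g2).

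**Figure D5:**
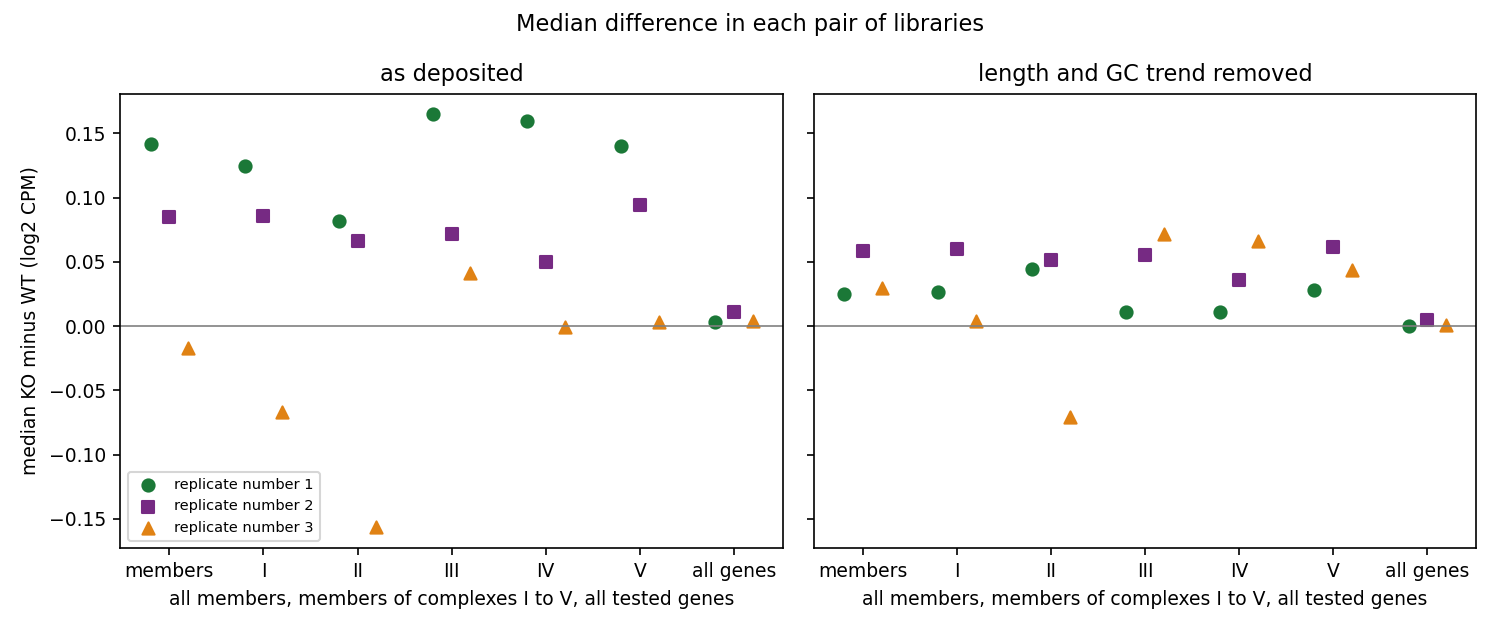
Median difference, KO minus WT in log2 CPM, over all tested members, over each complex and over all tested genes, in pairs 1, 2 and 3, as deposited (left) and with the length and GC trend removed (right). As deposited, the members' medians are 0.142, 0.085 and -0.017; with the trend removed they are 0.025, 0.058 and 0.030, while those of all genes stay near 0 in both panels.

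Genes outside the symbol rule that serve the same process were counted in 9 lists, and 0 genes of any list passed 5% FDR in limma, beside 0.266% of all tested genes. Of 3 tested genes of the ATP synthase with other symbols, 2 were positive. Usmg5, a small membrane subunit of the ATP synthase, was at 7.94, 7.83 and 7.88 log2 CPM in KO and 7.61, 7.71 and 7.67 log2 CPM in WT libraries, without overlap (0.22 ± 0.10, limma adjusted p = 0.247). A proteolipid gene of the synthase, 2010107E04Rik, differed by 0.22 ± 0.06 (limma adjusted p = 0.292) and Atpif1, the inhibitor of the synthase, by -0.03 ± 0.09.

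Among assembly factors outside the rule, 6 of 9 tested for complex I were positive (median 0.064), 3 of 5 for complexes II and III (0.018), 16 of 22 for complex IV (0.055) and 2 of 4 for complex V (-0.015). The gene with the smallest p was Acad9 for complex I (0.14 ± 0.18, limma adjusted p = 0.737), and Bcs1l, which inserts the Rieske protein, for complexes II and III (0.28 ± 0.28, limma adjusted p = 0.538). It was Coa5 for complex IV (0.19 ± 0.09, limma adjusted p = 0.458) and Tmem70 for complex V (0.11 ± 0.06, limma adjusted p = 0.823). At an unadjusted p under 0.05 the counts were 2 in the list of subunits, 0, 1, 1 and 0 in the assembly lists for complexes I, II and III, IV and V, 2 among regulators, and 1, 1 and 2 in the lists of the tricarboxylic acid cycle, ubiquinone and carriers. These are counts in either direction, beside 8.82% of all tested genes.

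Of 18 tested regulators of mitochondrial biogenesis 10 were positive, with a median of 0.0067. Yy1, a zinc finger factor, was at 4.88, 4.64 and 4.83 log2 CPM in KO and 4.98, 5.22 and 5.03 log2 CPM in WT libraries. Its KO libraries lay below all WT libraries (-0.29 ± 0.25, limma adjusted p = 0.311). Nrf1 (-0.0040 ± 0.155), Gabpa (0.03 ± 0.05), Esrra (0.02 ± 0.17) and Tfam (-0.05 ± 0.14), which encode 3 factors of these promoters and the packaging factor of mitochondrial DNA, had overlapping groups. Ppargc1a was below the limit for testing.

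In the tricarboxylic acid cycle 12 of 18 tested genes were positive (median 0.026), and the smallest p was that of Dlat of the pyruvate dehydrogenase complex (0.19 ± 0.15, limma adjusted p = 0.479). In ubiquinone synthesis and cytochrome c maturation 11 of 16 were positive (0.018), and the smallest p was that of Adck3, a kinase-like protein of ubiquinone synthesis (0.20 ± 0.07, limma adjusted p = 0.552). Among carriers, porins and import genes 8 of 14 were positive (0.021). Slc25a5, an ADP/ATP exchanger of the inner membrane, was at 11.02, 11.00 and 11.01 log2 CPM in KO and 10.87, 10.89 and 10.88 log2 CPM in WT libraries, without overlap (0.13 ± 0.02, limma adjusted p = 0.411).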

How the data were processed

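Per the labels' protocols, B cells were bead purified and germinal centre cells sorted before TruSeq mRNA sequencing. The submitters' processing notes name mm10 as the build and list limma, Subread 2.0.1, featureCounts, STAR 2.6.1a, FastQC 0.11.7 and Trim Galore 0.6.5; settings and strandedness are not given in the sources used here. Values deposited by the authors are log2 CPM, as read from the values (linear sums of 997617 to 1000513 per library); 8492 genes hold the most common value, -5.063 (the floor), in all libraries. Read depth per library is unknown, so no counting interval can be given. Such a value for undetected genes implies an offset, which shrinks the differences of low genes; its size is not stated.

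In the deposited log2 values KO and WT with the same replicate number sum to the same total over the 3 numbers, to within 0.001. Group SDs are therefore equal by construction, the correlation of deviations within a number is -1.0, so that pairing cannot be checked, and each gene has already spent 2 degrees of freedom.

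Genes with a mean of at least 0 log2 CPM (1 CPM) that varied were tested with limma 3.58.1 (R 4.3.3): genotype plus replicate number as a block, variance trend, robust moderation, two-sided, Benjamini-Hochberg over 10133 genes at 5% FDR. Differences are KO minus WT with the SD over 3 pairs, and CPM of a group are geometric means. Coordinates, transcripts and coding lengths are from GENCODE (GRCm38, the same assembly as mm10), with 1 principal transcript per gene; promoters are from RefSeq. Length and GC trends were removed by loess per library, for 10073 genes with both values.

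Members, lists and alternatives were chosen with earlier results of these data known. Named were Basp1, the 6 members with the smallest p, the 2 highest and 2 lowest differences and the highest log2 CPM in complexes I, III, IV and V, the Sdh genes, Cyc1, Cycs and the gene with the smallest p in each list; other genes were named after their values had been seen. No set test was run.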

Additional observations from a re-analysis of the deposited data

How the results depend on the processing

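No member was called with the replicate block under every alternative run: no variance trend, non-robust moderation, no filter, a filter at 3 log2 CPM, 1 CPM added, median centring, length and GC trends removed, and each pair left out. Without the replicate block 6 members were called, all higher in KO cells (Ndufa3, Atp5e, Atp5g2, Cox7c, Cox8a and Atp5k, limma adjusted p between 0.0352 and 0.047), and 1 gene each in the lists of other subunits (2010107E04Rik) and of carriers (Slc25a5). That fit counts as free the 2 degrees of freedom already used.

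The members' median was between 0.022 (without pair 1) and 0.103 (without pair 3), with 55 and 80 positive, and 0.061 without pair 2. Members higher in KO cells at a limma unadjusted p under 0.05 numbered 12 in the main fit and 4 without the variance trend. They numbered 3, 4 and 22 without pairs 1, 2 and 3, and 31 without the replicate block, where 1 member was lower. Over all tested genes, in either direction, 894 had such a p in the main fit, 640 without the variance trend and 2361 without the block. Without pairs 1, 2 and 3 these were 882, 400 and 1219 genes. Complex medians ranged over the left-out pairs from 0.0070 to 0.103 in complex I, -0.0085 to 0.073 in complex II, 0.031 to 0.104 in complex III, 0.051 to 0.0995 in complex IV and 0.064 to 0.117 in complex V. Without pair 1, 1 regulator was called, Foxo1 (-0.41, limma adjusted p = 0.00378), against 0 to 1 over the left-out pairs.

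Of 284 comparisons of named members with an alternative 274 kept their direction. With length and GC trends removed, Atp5f1 was 0.0043. Over the left-out pairs the sign changed for Cycs (-0.0010 to 0.157), Sdhd (-0.047 to 0.105), Cyc1 (-0.014 to 0.052), Atp5f1 (-0.051 to 0.046), Cox6b2 (-0.312 to 0.016), Ndufaf1 (-0.129 to 0.0395), Ndufs8 (-0.043 to 0.011) and Uqcrc2 (-0.073 to 0.0040); the cause was not tested.

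Over all tested genes the calls higher and lower in KO cells were 17 and 10. They were 99 and 43 without the block, 0 and 0 without the variance trend (640 genes with an unadjusted p under 0.05), 7 and 5 without robust moderation, 42 and 53 without the filter, 13 and 15 with the stricter filter, 18 and 13 after centring, and 3 and 1 with length and GC trends removed. Without pairs 1, 2 and 3 they were 27 and 109, 4 and 7, and 28 and 74.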
